A study of Mus musculus with 6 samples.

Results

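The genes described here are Cxcl12, Igfbp5, Sparc, Fabp4, Col1a1, Col1a2 and Kitl, 7 secreted or stromal genes of the bone marrow among 30836 gene symbols on the array. Every probe listed under exactly 1 of these symbols was taken, which gave 18 of 45281 probes. Ter119-positive cells, the erythroid fraction of marrow, had been purified from 3 mice with a conditional knockout of mDia2, labelled mDia2 KO, and from 3 mice labelled wildtype, and each mouse had its own Illumina bead array. All 6 mice were C57BL/6 animals, 4 months old. mDia2, encoded by Diaph3, is a formin that assembles unbranched actin filaments. The Cre driver of the conditional allele and the alleles carried by the wild type mice are not given in the sources used here. The 7 genes were chosen by the signals of these same arrays in knockout against wild type mice, as stromal genes seen to be lower or looked for beside them, so all knockout against wild type values of these genes are descriptions and carry no test.

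Marrow stroma is the non-blood scaffold in which blood cells develop. Reticular cells around its vessels secrete CXCL12, a chemokine that holds stem cells, B cell precursors and neutrophils in the marrow through its receptor CXCR4, and they also make KIT ligand (Kitl), the growth factor for the receptor KIT on stem cells and early erythroid progenitors. Fibroblasts and bone-forming cells deposit type I collagen, whose chains are encoded by Col1a1 and Col1a2, and SPARC, a glycoprotein that binds collagen. IGFBP5 binds insulin-like growth factors outside the cell and sets how much reaches the receptor IGF1R. FABP4 carries fatty acids inside fat cells and is also made by capillary endothelium and macrophages.

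The data below turn on Igfbp5 and Cxcl12, which were lower in the same mice, so the 250 bases before the start of each gene are shown, from RefSeq on build GRCm38.p6; 5 of the 7 genes matched the RefSeq promoter table. Capitals mark matches on either strand to the TATA box letters TATAAA, the GC box letters GGGCGG and the E box letters CANNTG. The Igfbp5 window is chr1:72874866-72875115 on the minus strand and the Cxcl12 window is chr6:117168285-117168534 on the plus strand.
Igfbp5: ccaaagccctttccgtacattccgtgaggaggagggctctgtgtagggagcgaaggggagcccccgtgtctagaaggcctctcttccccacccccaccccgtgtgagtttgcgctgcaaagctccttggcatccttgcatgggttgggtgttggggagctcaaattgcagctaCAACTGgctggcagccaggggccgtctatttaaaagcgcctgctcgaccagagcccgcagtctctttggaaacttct
Cxcl12: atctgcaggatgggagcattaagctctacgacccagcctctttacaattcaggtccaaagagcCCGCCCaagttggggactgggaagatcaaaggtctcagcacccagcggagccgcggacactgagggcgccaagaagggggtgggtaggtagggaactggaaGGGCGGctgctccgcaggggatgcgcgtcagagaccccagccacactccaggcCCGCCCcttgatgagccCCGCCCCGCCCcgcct
The Igfbp5 window held 1 E box and no match to either of the other motifs, and the Cxcl12 window held 5 GC box matches, of which the last 2 overlap. Over 32851 windows of the same length, 66.2% held the E box letters, 32.7% the GC box letters and 12.4% the TATA box letters. The windows share neither motif, and a match is a description of the letters only.

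Knockout arrays detected 14815 to 15700 probes and wild type arrays 15315 to 16951, where detection means a deposited detection p under 0.05. The target gene, listed as Diap3, read 574, 341 and 486 in the knockout mice, against 1045, 965 and 969 in the wild type mice, on the brighter of its 2 probes. The position of these probes relative to the deleted part is not known. Of 15 erythroid marker genes 14 were detected widely enough to be tested. On the log2 scale 3 of these 14 were lower in the knockout mice, and the list had a middle value of 0.11, toward higher. Groups stood apart with the knockout higher in 3 of the 14, beside 2.01% of all genes, and with the knockout lower in 0. None of the 14 passed in limma. Alas2, the first enzyme of heme synthesis in red cells, was among the lower genes, with overlapping groups. It averaged 28832 ± 597 in knockout and 29194 ± 1584 in wild type mice (SD, n = 3 each). Signals as a whole were lower in the knockout group, with a median log2 change (knockout minus wild type) of -0.11 over 11567 genes, and 81.2% of genes lay below 0. Each change below is given as measured and includes that shift, which was 0.01 after quantile normalization. Signals are intensities on a linear scale with the background left in, and levels of different probes are not compared. With 3 arrays a group, precision is limited throughout.

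Only some of the 7 genes were above background. Of the 18 probes, 9 were detected on at least 1 array, and these belong to Cxcl12, Igfbp5 and Sparc. The other 9 were detected on no array, and they include every probe of Fabp4, Col1a1, Col1a2 and Kitl. Of the 108 probe-by-array values, 12 in knockout and 22 in wild type mice were detected. The 6 probes detected on at least 3 arrays entered the test across all probes, 3 of Igfbp5, 2 of Cxcl12 and 1 of Sparc. Of these, 1 passed, Igfbp5 probe 1, as lower in the knockout mice, beside 14 of 15743 probes (0.0889%) lower and 0 (0%) higher at an adjusted p under 0.05 in limma. At an unadjusted limma p under 0.05, 17.6% of probes were lower. Groups did not overlap for 5 of the 6, all lower in the knockout mice, beside 23% of all tested probes without overlap and lower and 1.98% without overlap and higher. These counts belong to the contrast on which the genes were chosen, and the filter itself favours probes that are high in 1 group.

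**Figure D1:**
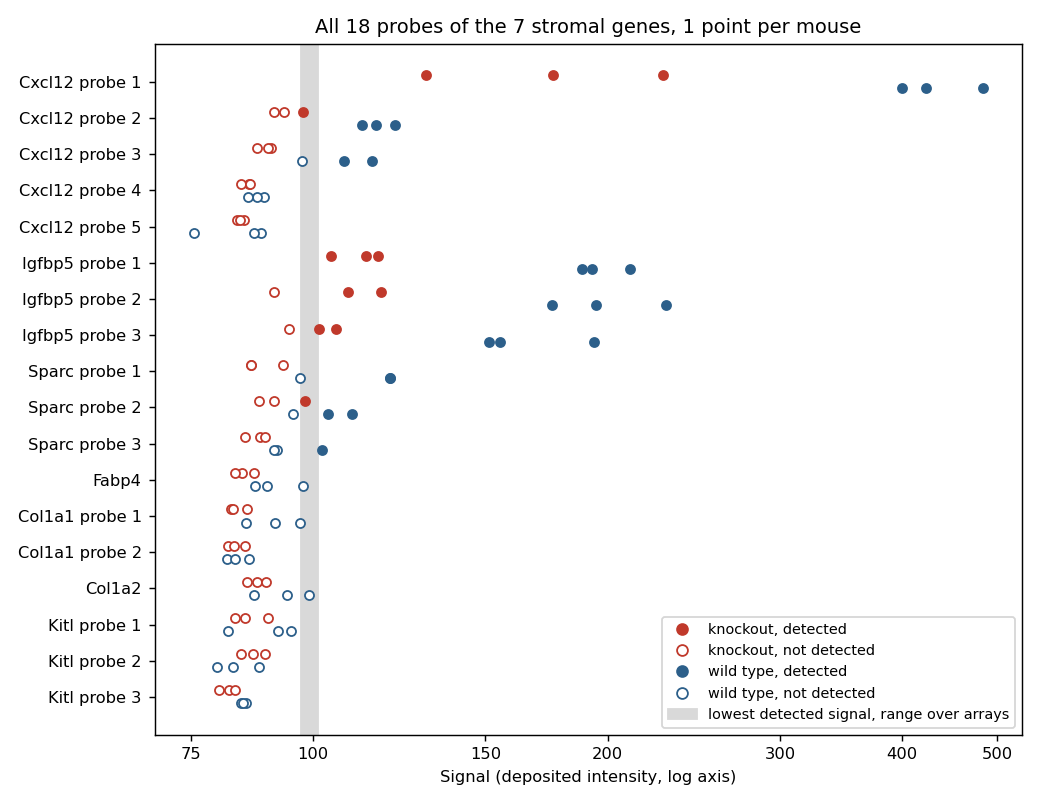
Signal of all 18 probes of the 7 genes in each mouse, on a log axis, with knockout mice above wild type mice for each probe. Filled points have a detection p under 0.05, open points do not, and the grey band spans the lowest detected signal of the 6 arrays (97.1 to 101). The 3 Igfbp5 probes and Cxcl12 probe 1 are filled in all wild type mice, while Fabp4, Col1a1, Col1a2 and Kitl have open points throughout.

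Cxcl12, the CXCR4 ligand, was measured by 5 probes with 3 different search keys in the table, and 1 of them was bright. Probe 1 (ILMN_2658908) read 176, 228 and 130.3 in the knockout mice, against 400.4, 484 and 423 in the wild type mice. Every knockout value lay below every wild type value, and the group means were 178 ± 48.7 in knockout and 436 ± 43.2 in wild type mice (SD, n = 3 each). Knockout mice thus held 40.8% of the wild type signal on average. On the log2 scale the difference was -1.32 (SE 0.19), a position that 0.356% of all tested probes lay below. The probe was detected on all 6 arrays, with detection p from 0.00107 to 0.00214 in knockout mice and 0 in wild type mice. In a bulk sample, fewer cells that carry a transcript and less of it per cell cannot be told apart. The knockout mice also differed among themselves, with replicate 3 lowest and replicate 2 highest, and the gap to the wild type mice was kept in both animal number series. Among animals numbered in the 900s the log2 change was -1.0 (2 knockout, 1 wild type), and among those in the 1100s it was -1.80 (1 knockout, 2 wild type).

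The dimmer Cxcl12 probes gave smaller differences. Probe 2 (ILMN_2737302) read 91.2, 97.7 and 93.5 in the knockout mice, against 112, 121 and 116 in the wild type mice, and was detected in 1 of 3 knockout and 3 of 3 wild type mice. Its log2 change was -0.31 (SE 0.07), and the groups did not overlap. After a background correction that took undetected probes as negative controls (normexp with an offset of 16), the change was -0.90 for probe 2 and -1.87 for probe 1. Probe 3 (ILMN_3158250) read 90.6, 89.8 and 87.5 in the knockout mice, where it was detected on no array, against 97.3, 115 and 108 in the wild type mice, where 2 of 3 arrays detected it. For a probe undetected in a whole group only a bound can be had: on each knockout array the probe was set to that array's detection floor, or left as read if brighter, before the wild type mean log2 signal was set against it. This gave a signal at least 1.09-fold lower in the knockout mice, with undetected wild type replicate 1 taken as read. Probes 4 and 5 were undetected in every mouse, so the 5 probes disagree in what they register. Over the 6 arrays, probes 1 and 2 correlated with a Pearson r of 0.961, a description that includes the split between the genotypes.

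Igfbp5, the binding protein of insulin-like growth factors, was lower on each of its 3 probes. Probe 1 (ILMN_2682613) read 113, 116 and 104 in the knockout mice, against 193, 188 and 211 in the wild type mice. It was detected on all 6 arrays, and the spread within each group was small beside the gap, with means of 111 ± 6.34 in knockout and 197 ± 12.1 in wild type mice (SD, n = 3 each). The log2 change was -0.83 (SE 0.08). This is the probe that passed across all probes, which is a description, since the gene was chosen on this same contrast. It no longer passed when knockout replicate 1 or 3, or wild type replicate 1 or 3, was left out, where the log2 change stayed between -0.84 and -0.78, nor with the animal number series as a factor. Within the series the change was -0.75 among animals numbered in the 900s and -0.94 among those in the 1100s. Since a signal of 111 lies close to the lowest detected signal of 97.1 to 101, the background left in the values bears on the size, and after the normexp correction the change was -1.66.

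Igfbp5 probe 2 (ILMN_1254358) read 108, 117 and 91.2 in the knockout mice, against 176, 195 and 229 in the wild type mice. Probe 3 (ILMN_2964324), which has a different search key, read 101, 105 and 94.5 in the knockout mice, against 155, 151 and 194 in the wild type mice. On both probes knockout replicate 3 was below detection, with detection p of 0.159 for probe 2 and 0.0812 for probe 3, while all 3 wild type mice were detected. The log2 changes were -0.92 (SE 0.13) for probe 2 and -0.72 (SE 0.11) for probe 3, and the groups did not overlap on either. With normexp they were -1.93 for probe 2 and -1.68 for probe 3. The 3 Igfbp5 probes followed each other over the arrays, with a Pearson r from 0.983 to 0.985 between pairs, and Igfbp5 probe 1 correlated with Cxcl12 probe 1 at an r of 0.955. These correlations rest on 6 arrays that share the split between genotypes.

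**Figure D2:**
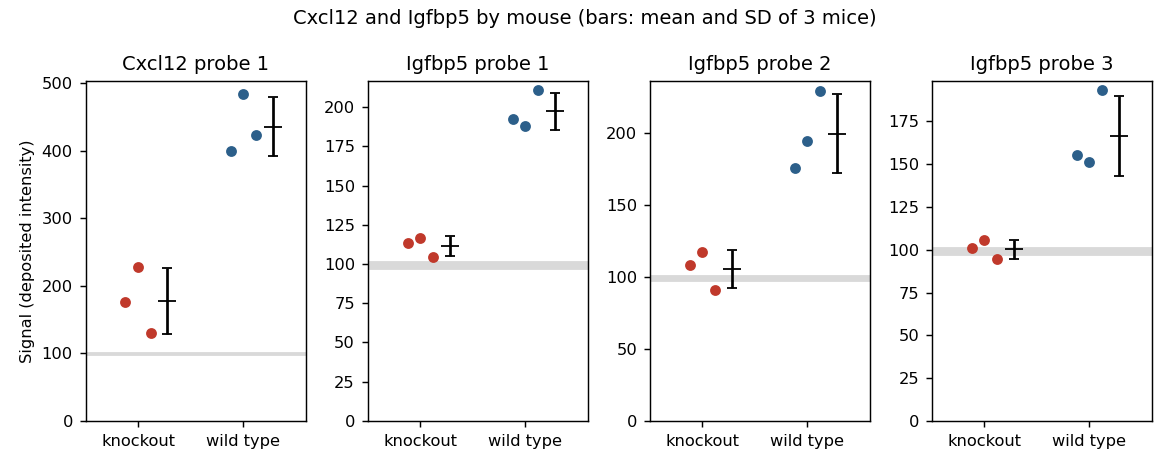
Signal of Cxcl12 probe 1 and Igfbp5 probes 1 to 3 by mouse, knockout left of wild type, each panel on its own linear axis from 0. Points are single mice, black bars give the mean and SD of 3 mice, and the grey band spans the lowest detected signal of the arrays. Knockout and wild type mice do not overlap in any panel, and on Igfbp5 probes 2 and 3 the lowest knockout mouse lies below the band.

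Sparc, the collagen-binding glycoprotein, was near background. Probe 1 (ILMN_3136561) read 86.4, 93.0 and 86.3 in the knockout mice, none of them detected, against 119.8, 97.0 and 119.7 in the wild type mice, of which 2 were detected. With undetected wild type replicate 2 taken as read, the bound was at least 1.14-fold lower in the knockout mice, carried by the 2 detected wild type mice. Wild type replicate 2 lay just above the highest knockout mouse. Probe 2 (ILMN_3059326), the only Sparc probe tested, read 91.1, 98.1 and 88.1 in the knockout mice, against 95.3, 109.6 and 103.6 in the wild type mice, and here the groups overlapped. Its log2 change was -0.15 (SE 0.08). It lay between -0.21 (without wild type replicate 1) and -0.11 (without wild type replicate 2) when single mice were left out and -0.41 with normexp, and 36.3% of tested probes lay lower. Probe 3 (ILMN_1243212) was detected in wild type replicate 3 alone, at 102. A further probe, listed as SPARC in capitals and so outside the 18, was undetected in every mouse.

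Type I collagen, Kitl and Fabp4 could not be measured in this fraction. The 9 probes detected on no array, 2 of them Cxcl12 probes, had signals from 75.5 to 99.0, and their group means ran from 81.8 to 87.5 in knockout and from 83.5 to 93.3 in wild type mice. The median signal of all undetected probes was 86.7 to 87.9 on the knockout arrays and 87 to 89.5 on the wild type arrays, so neither a bound nor a fold is given. The lowest detection p among them was 0.0684, for Col1a2 in wild type replicate 2. Fabp4 read 84.6, 86.9 and 83.2 in the knockout mice, against 87.1, 89.6 and 97.6 in the wild type mice, all below detection. The brighter Col1a1 probe read 82.3, 85.6 and 82.8 in the knockout mice, against 91.4, 85.4 and 97.0 in the wild type mice, and Col1a2 read 87.6, 89.4 and 85.5 in the knockout mice, against 86.9, 99.0 and 94.0 in the wild type mice. For Kitl, the KIT ligand, the highest of 18 values was 94.8 in wild type replicate 2. A difference in these 4 genes was not detectable at this signal.

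The receptors of these products were measured in the same arrays, from a list of 11 genes of which 7 were tested. None passed over all probes, 6 of the 7 lay below 0 and the median log2 change was -0.14, beside -0.11 over all genes. Cxcr4, the receptor of CXCL12, read 910, 547 and 757 in the knockout mice, against 685, 727 and 749 in the wild type mice, with a log2 change of 0.0047 (SE 0.17, limma adjusted p = 0.991). Its knockout values spread around the wild type values on both sides. Kit, the receptor of KIT ligand, read 185, 290.2 and 199 in the knockout mice, against 331, 432 and 333 in the wild type mice. The groups did not overlap, and the log2 change of -0.72 (SE 0.18) did not pass (limma adjusted p = 0.180). Igf1r, the receptor of insulin-like growth factors, averaged 193 ± 10.4 in knockout and 241 ± 14.9 in wild type mice (SD, n = 3 each), and its log2 change, -0.32, did not pass (limma adjusted p = 0.180). Igf2r, which clears IGF2, and Itgb1, an integrin chain that binds matrix, had log2 changes of -0.14 and -0.22 (limma adjusted p = 0.518 and 0.519), and the 2 tested Itgb1 probes differed in sign. The atypical CXCL12 receptor Ackr3, listed as Cxcr7, was undetected in every mouse. Stab1, a scavenger receptor of SPARC made by macrophages, had a log2 change of -0.14 (SE 0.16, limma adjusted p = 0.636).

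Other genes of the insulin-like growth factor system gave 7 tested of 17 listed, with 0 passing, 6 below 0 and a median of -0.15. Igfbp7, a related secreted protein, read 96.1, 114 and 94.5 in the knockout mice, against 156, 151 and 167 in the wild type mice, and it was detected in 1 of 3 knockout and 3 of 3 wild type mice. Its log2 change was -0.65 (SE 0.09, limma adjusted p = 0.0904). Igfbp4, a further binding protein, read 103, 115 and 101 in the knockout mice, against 172, 140 and 214 in the wild type mice, a log2 change of -0.71 (SE 0.15, limma adjusted p = 0.162). The groups of both genes stood apart without overlap. Igf1, a ligand that IGFBP5 binds, averaged 149 ± 33.2 in knockout and 163 ± 7.25 in wild type mice (SD, n = 3 each) with overlapping groups, and Igf2, Igfbp1 and Igfbp6 were undetected on every array.

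The wider set of stromal genes was examined through 9 lists covering niche factors, receptors, the growth factor system, matrix, collagen processing, stromal markers, fat, bone and vessel genes, 159 genes in all and none of them among the 7. Blood cells also make some of them, among these Kit, Hp, Cebpb, Vwf, Vcam1 and Stab1, so the totals are not of stromal cells alone. Kit, Hp and Vwf are among the 23 without overlap below, as are Tgfb1, Igf1r, Pnpla2, Bmp1, Crtap and Esam. Which cells made these transcripts was not tested. On the array were 158, of which 60 were tested and 75 were undetected on every array by the brightest probe. None of the 60 passed over all probes in limma, beside 0.104% of all genes passing as lower and 0% as higher. At an unadjusted limma p under 0.05, 17 of the 60 were lower and 0 higher, beside 18.6% of all genes lower and 1.3% higher. Groups did not overlap, with the knockout lower, in 23 of 60 (38.3%), beside 23.2% of all genes, and with the knockout higher in 1 of 60, beside 2.01% of all genes. Of the 60, 54 of 60 (90%) lay below 0, beside 81.2% of all genes. The filter favours genes that are high in 1 group. Fn1, Hspg2, Serpinh1, Ibsp and Robo4, all among the 23, entered through the wild type arrays alone. The shares are therefore a description, and no excess over all genes was tested. The count of genes passing was 4 without knockout replicate 2, all lower.

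Of 25 stromal markers 14 were detected on at least 1 array by their brightest probe and 11 on none. Lepr, Pdgfrb, Ebf3 and Foxc1, which define CXCL12-abundant reticular cells, were undetected on all 6 arrays by their brightest probes, and Pdgfra was detected in 1 of 3 knockout and 1 of 3 wild type mice. The list had 8 tested genes, 7 of them below 0, a median of -0.14 and 0 passing. Their summed signal ran from 1024 to 1314 in knockout and from 1361 to 2185 in wild type mice. That gap rested on haptoglobin (Hp), which neutrophils also make and which had the lowest log2 change of the list, -1.57 (SE 0.40, limma adjusted p = 0.180). Without Hp, a choice made after seeing the data, the sums of the other 7 genes were 864, 969.8 and 842 in the knockout mice, against 1012, 964 and 1009.9 in the wild type mice, and the groups overlapped. Ly6a had a log2 change of -0.45, Adipoq, a fat cell hormone, -0.14, and Eng, a coreceptor of transforming growth factor beta on endothelium, -0.15, with limma adjusted p from 0.292 to 0.374.

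Matrix and collagen genes were mostly dim. Of 33 further matrix genes 6 were tested and 20 were undetected on every array, among them Col3a1, Dcn, Lum and Postn, which fibroblasts secrete. Biglycan (Bgn), a small matrix proteoglycan, read 101, 109 and 96.5 in the knockout mice, against 143, 132 and 138 in the wild type mice, a log2 change of -0.43 (SE 0.08, limma adjusted p = 0.136). Fibronectin (Fn1) was detected in no knockout mouse and in every wild type mouse, where it read 121, 106 and 437, so it was at least 1.82-fold lower in the knockout mice, a bound carried by wild type replicate 3 (limma adjusted p = 0.323). Hspg2, the basement membrane proteoglycan perlecan, had a bound of at least 1.04-fold lower in the knockout mice (limma adjusted p = 0.235), and Col5a1 had a log2 change of -0.15 with overlapping groups (limma adjusted p = 0.527). Among 14 collagen processing genes 11 were tested, 0 passed and the median was -0.10. Serpinh1, the chaperone of collagen folding, was detected in no knockout mouse and at 104, 104 and 106 in the wild type mice, at least 1.07-fold lower (limma adjusted p = 0.181). Bmp1, which trims procollagen, averaged 174 ± 21.0 in knockout and 235 ± 12 in wild type mice (SD, n = 3 each), a log2 change of -0.44 (limma adjusted p = 0.170). Plod3 and P4hb, which hydroxylate collagen chains, had log2 changes of -0.68 and -0.36 with overlapping groups (limma adjusted p = 0.266 and 0.305).

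Among 16 other niche factors 4 were tested, 0 passed and 10 were undetected on every array, including Il7, Csf1, Angpt1 and Bmp4. Vcam1, the adhesion molecule that reticular cells and island macrophages display, read 531, 1812 and 516 in the knockout mice, against 1320, 1609 and 1774 in the wild type mice. Knockout replicate 2 lay above every wild type mouse and the other knockout mice lay far below, so the groups overlapped and the log2 change of -0.97 (SE 0.45) did not pass (limma adjusted p = 0.284). Tgfb1 and Il15 had log2 changes of -0.43 and -0.25 with limma adjusted p of 0.193 and 0.229, and Igf1 is given above. Of 15 fat cell genes 8 were tested, 0 passed and the median was -0.27, with Pnpla2, the triglyceride lipase, at -0.28 (limma adjusted p = 0.193) and Cebpb at -0.91 (0.227), which myeloid cells also express. Adipoq (-0.14, limma adjusted p = 0.346) and Pparg (-0.26, 0.436) also did not pass. Of 15 bone genes 5 were tested and 0 passed, at a median of -0.09. The osteocalcin gene Bglap2 was at -0.16, Col11a1 at -0.09 and Mmp13 at -0.08, while Ibsp, undetected in every knockout mouse, had a bound of at least 1.07-fold lower in those mice (limma adjusted p from 0.246 to 0.663 for these 4).

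Endothelial cells are a further source of CXCL12. Of 20 endothelial genes 10 were tested, all 10 lay below 0 with a median of -0.18, and 0 passed. Esam, an endothelial and platelet adhesion molecule, read 90.7, 102 and 91.4 in the knockout mice, against 123, 124 and 157 in the wild type mice, a log2 change of -0.50 (SE 0.11, limma adjusted p = 0.169). Vwf, made by endothelium and megakaryocytes, had a log2 change of -0.40 (limma adjusted p = 0.180), Robo4, undetected in every knockout mouse, had a bound of at least 1.15-fold lower (limma adjusted p = 0.180), and Plvap was at -0.22 (limma adjusted p = 0.30). Cdh5, the endothelial cadherin, was detected in no knockout mouse and in 2 of 3 wild type mice.

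**Figure D3:**
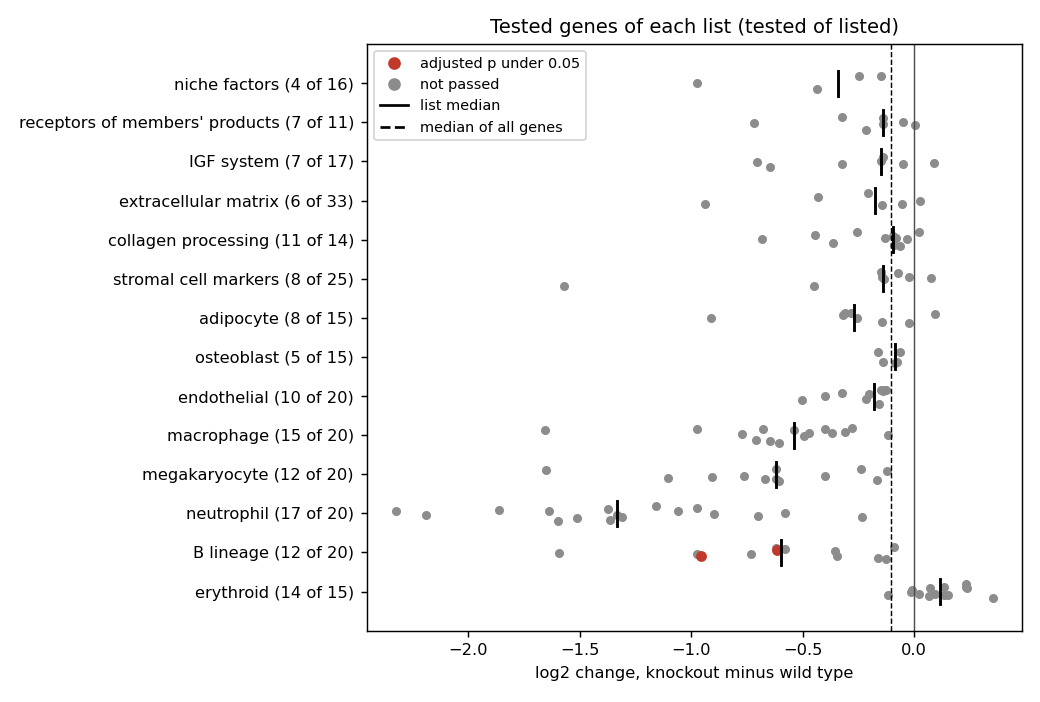
Log2 change, knockout minus wild type, of each tested gene in 14 lists, with the number tested of the number listed beside each name. Vertical ticks are list medians and the dashed line is the median of all genes (-0.11). Changes are as measured, with the background left in. The lists called stromal include receptors and other genes that blood cells also make. These 9 lists lie between medians of -0.34 and -0.09 with no gene passing. The blood cell lists lie lower with 2 B lineage genes passing, and the erythroid list lies at 0.11.

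Lists of other blood cell types had lower medians than the stromal lists in the same mice, a difference between lists that was not tested. Background left in the values bears on the size of these changes in dim genes. With normexp the stromal list medians ran from -0.60 (niche factors) to -0.22 (bone), beside -0.18 over all genes. Those of the neutrophil, megakaryocyte, B lineage and macrophage lists were then -1.41, -1.26, -1.02 and -0.83. After quantile normalization the stromal list medians ran from -0.20 (niche factors) to -0.00035 (receptors and the growth factor system), beside 0.01 over all genes. The neutrophil, megakaryocyte, B lineage and macrophage medians were then -1.27, -0.49, -0.43 and -0.37. The values that follow are as measured. Median log2 changes were -1.33 for 17 neutrophil genes, -0.62 for 12 megakaryocyte genes, -0.60 for 12 B lineage genes and -0.54 for 15 macrophage genes, and 0.11 for 14 erythroid genes. Of all 128 tested genes in the 14 lists 2 passed, both B lineage genes and both lower. Over all genes 0.104% passed as lower and 0% as higher. The 2 were the receptor chain Cd79b (log2 change -0.96, limma adjusted p = 0.00383) and Ly6d (-0.62, limma adjusted p = 0.0426). The lists were chosen with earlier results of these data known, so their medians and counts are descriptions. The summed neutrophil signal ran from 15885 to 28021 in knockout and from 39411 to 56434 in wild type mice, that of megakaryocytes from 1833 to 1901 in knockout and from 2334 to 3350 in wild type mice, and that of macrophages from 3417 to 8279 in knockout and from 7600 to 13984 in wild type mice. Megakaryocytes also make SPARC and macrophages FABP4, and the part of any of these cells in the Cxcl12, Igfbp5 and Sparc values was not tested. In knockout replicate 2, relative to the wild type mean on the log2 scale, Cxcl12 probe 1 lay at -0.93 and Igfbp5 probe 1 at -0.76. In the same mouse the list means lay at -0.92 for neutrophils, -0.62 for megakaryocytes, -0.52 for B lineage and 0.01 for macrophages, and Vcam1 lay at 0.22. In knockout replicates 1 and 3 the macrophage list mean lay at -0.92 and -0.89 and the neutrophil list mean at -1.59 and -1.39. There Cxcl12 probe 1 lay at -1.30 and -1.74 and Igfbp5 probe 1 at -0.80 and -0.92. In wild type replicates 1 to 3 Cxcl12 probe 1 lay at -0.12, 0.16 and -0.04. The neutrophil list mean lay at 0.06, -0.47 and 0.41 in those mice.

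**Figure D4:**
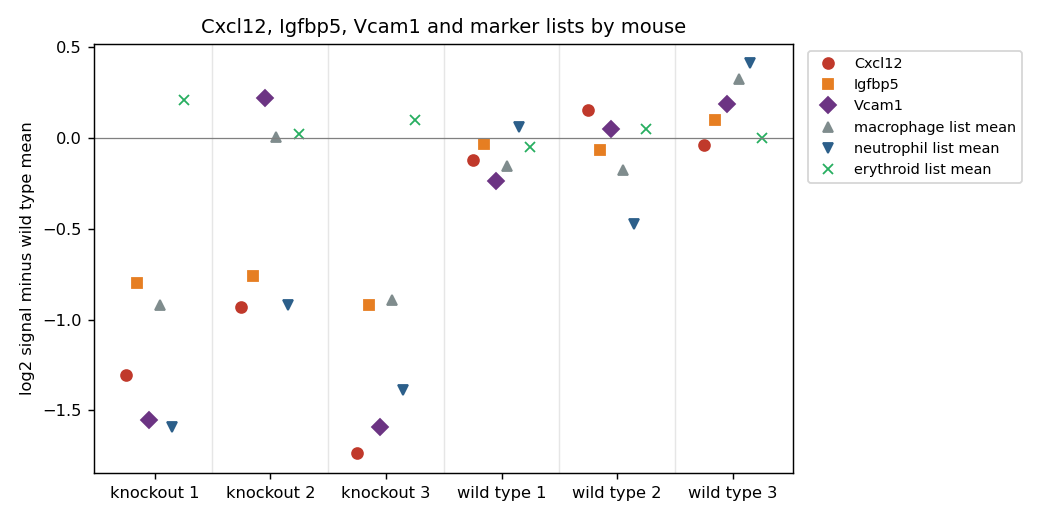
Log2 signal minus the wild type mean in each mouse for Cxcl12 probe 1, Igfbp5 probe 1, Vcam1 and the means of 3 marker lists, with knockout mice left of wild type mice. In knockout replicate 2, Cxcl12, the neutrophil list and Igfbp5 stand at -0.93, -0.92 and -0.76, while Vcam1 and the macrophage list stand at 0.22 and 0.01. In other mice Cxcl12 and the neutrophil list stand apart, at 0.16 and -0.47 in wild type replicate 2 and at -1.74 and -1.39 in knockout replicate 3. Erythroid genes lie between 0.02 and 0.21 in the knockout mice.

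The genes whose log2 signal followed each measured gene most closely over the 6 arrays, by Pearson r among 11567 genes, were also listed. For Cxcl12 probe 1 these were Actb, which encodes beta-actin (r = 0.9996), Rsrc1 (0.997) and LOC384338 (0.996). Actb read 6456, 6841 and 6014 in the knockout mice, against 7837, 8219 and 8019 in the wild type mice. Its highest and lowest knockout mice are those of Cxcl12 probe 1, and its log2 change was -0.32. For Igfbp5 probe 1 they were Entpd4, a nucleotidase (r = 0.998), Nudt6 (0.996) and 2510002J07Rik (0.995), and for Sparc probe 2 they were 1700030C10Rik (0.993), D10Ertd516e (0.991) and H2-Oa (0.990). An r above 0.95 was reached by 144 genes for Cxcl12, 243 for Igfbp5 and 50 for Sparc, and the arrays share the split between genotypes.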

How the data were processed

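RNA from Ter119-positive marrow cells of 6 mice was hybridised to Illumina bead arrays, 1 array per mouse, and grouped by the genotype in the labels. The deposited table holds, per the file headers, an average signal intensity and a detection p-value for each of 45281 probes, with no log transformation. Any normalization the authors applied to these intensities is unstated in the labels and headers. The deposited detection p-value says how the signal compares with negative controls on the same array, and 0.05 was the limit for calling a probe detected. A second deposited table held identical values and was not used further, and 2 lines without values were dropped.

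Intensities were log2 transformed as deposited. The 15743 probes detected on at least 3 of 6 arrays were compared between knockout and wild type with limma 3.58.1 in R 4.3.3 (two-sided, Benjamini-Hochberg over all tested probes, threshold 0.05), and a gene with several probes stands as its brightest tested probe. The labels call the mice biological triplicates. The fit was tested on simulated data. The 7 genes and all gene lists were chosen with earlier results of these data known. From each stromal list the genes that passed and up to 4 with the smallest unadjusted p are named. From the blood cell and erythroid lists only the genes that passed are named by rule. Alas2, Cxcr4, Stab1, Pdgfra, Cdh5 and the genes named as undetected were named for their role, after their values were seen. Alternatives were other normalizations, background correction, a pseudocount of 16, other filters, array weights, an intensity trend, blocks and leaving out mice. Promoter sequences are from RefSeq, GRCm38.p6.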

Additional observations from a re-analysis of the deposited data

How the results depend on the processing

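All 6 tested probes of Cxcl12, Igfbp5 and Sparc stayed below 0 in every alternative run that kept them. Stricter filters left Cxcl12 probe 2 and Igfbp5 probes 2 and 3 in 17 of 18 alternatives and the Sparc probe in 16. The genes were chosen on this contrast and 81% of all tested probes lay below 0, so the shared sign is a description. The count of 14 probes passing over the array was 4 with probes detected on all 6 arrays, 5 with a replicate block, 8 with the animal number series as a factor, 46 at an adjusted p under 0.1, 110 with normexp, 130 with an intensity trend and 190 with array weights. Leaving out single mice gave 8 to 187 probes, the highest without knockout replicate 2, 44 without wild type replicate 2, and 8 without each of wild type replicate 3, knockout replicate 1 and knockout replicate 3. After quantile normalization 14 passed, 10 lower and 4 higher. The count of 2 genes over all lists was 1 with quantile normalization, with a pseudocount of 16, with probes detected on all 6 arrays, with the series as a factor and with the mean of a gene's probes, 0 with the replicate block, 21 with normexp, 26 with a trend and 22 with array weights, and 1 to 23 when single mice were left out. The count of 0 genes over the stromal lists was 4 with normexp, 5 with a trend, 4 with array weights and 0 to 4 when single mice were left out. Leaving out wild type replicate 3 and knockout replicate 2 together, the arrays of lowest weight (0.364 and 0.549), was chosen after seeing the data and gave 1023 probes, 50 list genes and 14 stromal genes. The cause of these differences was not tested. The labels give no pairing of the mice. Same-numbered mice had correlations of their deviations of 0.218, -0.278 and -0.188, and differently numbered mice from -0.280 to 0.341. With so few mice these values cannot settle whether any were paired. With the replicate block, Igfbp5 probe 1 kept its log2 change of -0.83 and did not pass. Signals within the range of undetected probes limit what can be said of Fabp4, Col1a1, Col1a2, Kitl and most of Sparc.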
